A study of Mus musculus with 4 samples.

Results

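The interleukin 17 program was followed here as 7 genes, chosen by name: the cytokine gene Il17a, the receptor genes Il17re, Il23r and Il18r1, the chemokine receptor gene Ccr6, the Src-family kinase gene Blk and the scavenger receptor gene Cd163l1. They are 7 of the 55253 genes named in both gene tables. Their raw unique molecular identifiers (UMIs, each standing for 1 captured RNA molecule) were counted in mouse mammary gland leukocytes, in T cells split by Trdc or Cd163l1 and by Cd4 and Cd8b1, and in lymphoid cells without Cd3.

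Interleukin 17A is a cytokine that acts on epithelial cells, where it induces antimicrobial peptides and chemokines that draw neutrophils. Mouse gamma-delta T cells that make it leave the thymus already committed and respond to interleukin 23, interleukin 1 and interleukin 18 without a T cell receptor signal. Helper T cells, some natural killer T and mucosal-associated invariant T cells and group 3 innate lymphoid cells can make it as well.

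The cells were CD45+ leukocytes released from the gland with collagenase, tagged with hash antibodies, pooled and run with droplet 3′ RNA sequencing as 2 libraries. Their names, DR_MG_2021 and DR_MG_2022, carry a year, by which DR_MG_2021 is the older library in what follows and DR_MG_2022 the newer. The older library held samples named Nulliparous, Gestation, Lactation and HT2. The newer library held Gestation, Lactation, Involution, Regression, Balb/c, GF (germ-free) and HT2. A further tag on its sheet, HT4, had 1 count in the cells kept and was not used. HT2 is called by its tag because the deposited tag sheets and the sample titles disagree on its name, and it was left out of comparisons of stages. A name is thus 1 tagged sample per library, 4 in the older library and 7 in the newer library. How many animals a tag pooled, the strain of the animals other than Balb/c and the reproductive stage of those named Balb/c or GF could not be taken from the labels, and all animals shared the same sort and digestion.

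The older library was the shallower, with a median of 1599 UMIs in 21604 cells kept, against 3049 in 21177 cells in the newer library. After tag and doublet calls 783 to 5631 cells per sample remained, with 2912469 to 11413286 UMIs. Ptprc, which encodes CD45, was detected in 78.4% to 96.3% of the cells of a sample. The libraries had 139 cell barcodes in common. Cells with at least 1 Cd3e UMI were taken as T cells. Those with a UMI of Trdc (the T cell receptor delta constant gene) or Cd163l1 formed the Trdc/Cd163l1 gate, and the others were split into a CD4 gate, a CD8 gate and a no-coreceptor gate. A Cd3-negative lymphoid gate, a B cell gate and a macrophage gate were kept beside them. In the Trdc/Cd163l1 gate all 7 gamma-delta T cell marker genes were detected in the older library, summing to 16.3 UMIs per 10000 UMIs, though Trdc and Cd163l1 are among the 7 and chose the cells. Alpha-beta T cell receptor genes summed to 10.2 in the same cells, so the gate was not free of them.

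The members lie on 5 different chromosomes in build GRCm38.p6. Il17a (chr1:20730905-20734496) and Il18r1 (chr1:40465552-40500854) share chromosome 1, and Il23r (chr6:67422932-67491855) and Il17re (chr6:113458699-113470758) share chromosome 6. Cd163l1 is at chr7:140197218-140231145, Blk at chr14:63372837-63417187 and Ccr6 at chr17:8236041-8258519. AGGTCA is a core motif that many nuclear receptors bind, among them the product of Rora. The RefSeq table matched 6 of the 7 members, all but Blk, with 9 promoters between them. The 250 bases before the start were searched for AGGTCA on both strands (TGACCT on the other), with no overlap with another motif searched. A match was present in 3 of these 9 promoters, 1 each of Il17a, Il23r and Ccr6, against 4607 of 32851 promoters of this length (14.02%). The 3 sequences are shown because they hold those letters, with the match in capitals, and each is read 5′ to 3′ on the gene's strand. They lie at chr1:20730655-20730904 on the plus strand for Il17a, at chr6:67491856-67492105 on the minus strand for Il23r, and at chr17:8235793-8236042 on the plus strand for Ccr6.
Il17a: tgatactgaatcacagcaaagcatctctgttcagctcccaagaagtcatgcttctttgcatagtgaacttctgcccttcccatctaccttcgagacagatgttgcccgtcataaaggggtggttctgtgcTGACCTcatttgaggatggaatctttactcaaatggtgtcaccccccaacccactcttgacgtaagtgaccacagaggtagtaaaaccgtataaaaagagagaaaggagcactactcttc
Il23r: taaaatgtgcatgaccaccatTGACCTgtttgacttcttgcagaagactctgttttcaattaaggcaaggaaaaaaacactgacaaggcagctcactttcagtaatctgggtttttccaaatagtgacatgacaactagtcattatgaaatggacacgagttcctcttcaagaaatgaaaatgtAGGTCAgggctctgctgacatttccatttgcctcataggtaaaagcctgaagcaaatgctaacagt
Ccr6: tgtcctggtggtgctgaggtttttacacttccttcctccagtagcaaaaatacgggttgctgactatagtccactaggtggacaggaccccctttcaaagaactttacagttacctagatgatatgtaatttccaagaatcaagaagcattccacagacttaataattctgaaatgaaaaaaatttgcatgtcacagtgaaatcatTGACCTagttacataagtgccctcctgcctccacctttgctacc
The match in Il17a began 120 bases before the start, those in Il23r 229 and 66 bases before it, and that in Ccr6 44 bases before it. These are matches of letters, and binding was not measured.

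Across the gates the 7 genes did not share 1 pattern. Cd163l1 lay mostly in cells with a Cd3 gene, and Il17a was rare everywhere. Il17re and Il23r were low and spread over the Trdc/Cd163l1 gate, the no-coreceptor gate and cells with Cd3d or Cd3g but no Cd3e. Il18r1 was present in every lymphoid gate, and the library sums of Blk and Ccr6 were highest in B cells. In the newer library, of 746 Cd163l1 UMIs 634 were in the Trdc/Cd163l1 gate, which its own UMIs help to define, and 84 in cells with Cd3d or Cd3g but no Cd3e. In the older library these held 58 and 87 of 162 UMIs. Of 1741 Blk UMIs of the newer library 1141 were in B cells, and 547 of its 997 Ccr6 UMIs. Of its 4538 Il18r1 UMIs 1081 were in the no-coreceptor gate and 838 in the Cd3-negative lymphoid gate. Of its 209 Il17re UMIs 54 were in the Trdc/Cd163l1 gate and 65 in the no-coreceptor gate, and of its 107 Il23r UMIs 39 and 43. The older library had 69 Il17re and 39 Il23r UMIs. Of these, 23 and 20 were in cells with Cd3d or Cd3g but no Cd3e. The Trdc/Cd163l1 gate held 9 and 4, and the no-coreceptor gate 23 and 10.

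**Figure D1:**
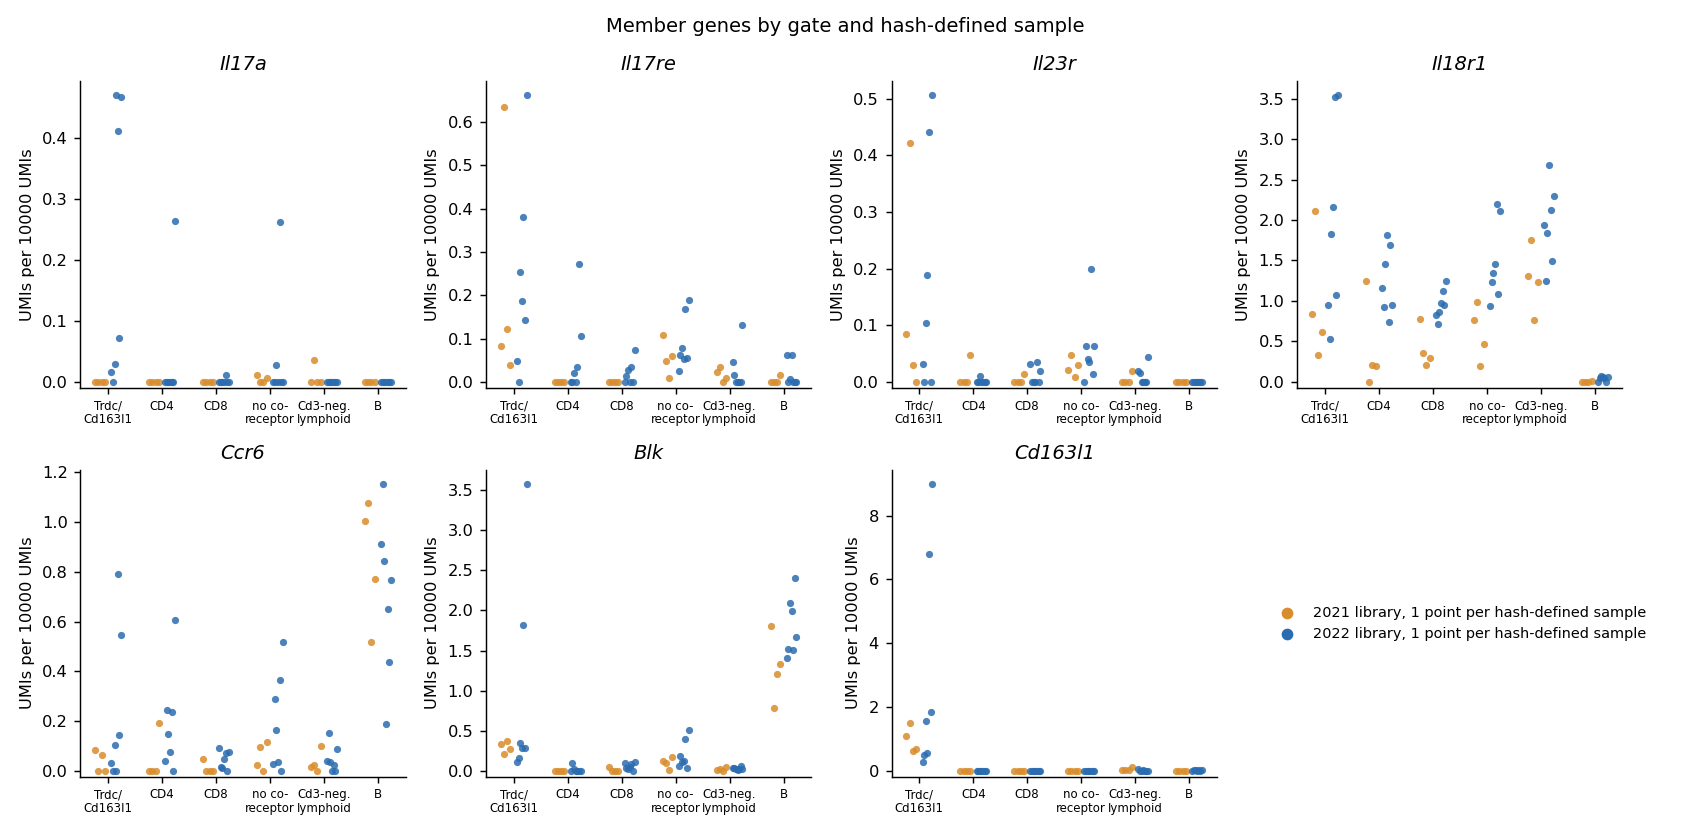
UMIs of each member per 10000 UMIs of a gate, with 1 point per tagged sample (orange for DR_MG_2021, the older library; blue for DR_MG_2022, the newer one) for the T cell gates, the Cd3-negative lymphoid gate and the B cell gate. Blk in the Trdc/Cd163l1 gate reached 3.58 in the newer library's Regression sample, above the B cell range of 0.778 to 2.40, while Il18r1 was present in all the lymphoid gates.

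Il17a, the cytokine itself, was found in 4 cells of the older library (6 UMIs) and 27 cells of the newer library (94 UMIs). In the Trdc/Cd163l1 gate of the older library there were 0 UMIs of 756362, where the limit set at 3 UMIs is 0.0397 per 10000. In that gate in the newer library the level was 0.411 per 10000 in Involution (14 UMIs), 0.467 in Regression (12 UMIs), 0.469 in HT2 (5 UMIs, all from 1 cell), 0.0712 in Lactation (1 UMI), 0.0297 in Gestation (2 UMIs), 0.0160 in Balb/c (1 UMI) and 0 in GF. Involution, Regression and HT2 were the high samples. The Involution and Regression values rested on 4 cells each, and the HT2 value on a single cell. Of the 27 cells in the newer library, 15 came from Involution or Regression and 13 from the Trdc/Cd163l1 gate. Neither the B cell gate nor the macrophage gate held an Il17a UMI in either library, of 6670252 and 5925278 UMIs in the newer library.

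The Il17a cells of the newer library came in 2 main kinds. With a Cd163l1 UMI there were 15 cells, 14 of them with Trdc, carrying 40 Il17a UMIs and at most 6 in a cell. Blk was detected in 13 of these 15 cells, Il18r1 in 13, Ccr6 in 9, Il23r in 6 and Il17re in 6. With Trac, the alpha-beta T cell receptor constant gene, and no Cd163l1 there were 10 cells, with 52 Il17a UMIs and 18 in 1 cell of the Involution sample. None of these 10 had Trdc (0 of 10 cells). Il18r1 was detected in 7 of them, Il17re in 5, Blk in 3, Il23r in 3 and Ccr6 in 3. Trac was also detected in 4 of the 15 cells with Cd163l1. Il17f, the neighbouring cytokine gene of the same family, had 26 UMIs in 3 of the Trac cells and 2 UMIs in 1 of the Cd163l1 cells. The CD4 gate held 10 Il17a UMIs in the newer library, all in 1 cell of the Regression sample. The remaining 2 cells had neither gene.

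Il17re, which encodes the receptor subunit for interleukin 17C, was higher in the Trdc/Cd163l1 gate than in the CD8 gate in 10 of 11 tagged samples, with means of 0.232 ± 0.232 and 0.0137 ± 0.0238 UMIs per 10000 (SD, n = 11). In that gate in the older library Nulliparous had 0.0384, Gestation 0.0838, Lactation 0.121 and HT2 0.634, the last from 3 UMIs. GF of the newer library had 0, Balb/c 0.0481, Lactation 0.142, HT2 0.188, Gestation 0.253, Involution 0.382 and Regression 0.661. The 2 highest values of the newer library were Regression and Involution, and their intervals overlapped that of Gestation (0.147 to 0.405). Intervals here and below are exact 95% Poisson or binomial intervals and cover counting error only. The exact paired permutation test over the samples (2-sided) gave p = 0.00195 for Il17re against the CD8 gate, adjusted p = 0.0599 over 13613 genes. The adjusted p was 0.194 against the CD4 gate, 0.288 against the no-coreceptor gate and 0.0949 against the Cd3-negative lymphoid gate.

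Il23r, the specific subunit of the interleukin 23 receptor, was at 0 in B cells and macrophages of both libraries. In the Trdc/Cd163l1 gate of the newer library it reached 0.506 per 10000 in Regression (13 UMIs) and 0.440 in Involution (15 UMIs). The others had 0.188 in HT2 (2 UMIs), 0.104 in Gestation (7 UMIs), 0.0321 in Balb/c (2 UMIs) and 0 in GF and Lactation. In the older library the same gate had 4 UMIs in all. Over the 11 samples the mean was 0.164 ± 0.197 per 10000 against 0.00534 ± 0.0146 in the CD4 gate, higher in 8 samples and lower in 1 (exact paired permutation p = 0.0156, adjusted p = 0.194).

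Il18r1, the ligand-binding chain of the interleukin 18 receptor, was the most widely detected member. Library sums in the newer library were 2.00 per 10000 in the Cd3-negative lymphoid gate, 1.78 in the Trdc/Cd163l1 gate, 1.43 in the no-coreceptor gate, 1.25 in the CD4 gate and 0.935 in the CD8 gate, with 0.0570 in B cells. Among the Cd3-negative cells it lay mostly in those with the natural killer genes Ncr1 or Klrb1c, at 1.23 per 10000 in the older library and 2.42 in the newer library, while no other member had more than 7 UMIs in them. It was the only testable member of the program with enough UMIs in most sums for the count model: in edgeR's quasi-likelihood test it was higher in the Trdc/Cd163l1 gate than in the CD8 gate by 0.85 on the log2 scale (SE 0.20, adjusted p = 0.00114 over 6667 genes), where 15.1% of the genes tested were called and 7.63% were called higher. Against the CD4 gate the difference was 0.59 (SE 0.22, adjusted p = 0.0568), with 15.0% of genes called and 7.95% called higher. It was 0.35 (SE 0.18, adjusted p = 0.404) against the no-coreceptor gate and −0.28 (SE 0.18, adjusted p = 0.367) against the Cd3-negative lymphoid gate, where 2.07% and 11.1% of genes were called, and 0.615% and 5.41% were called higher. The call against the CD8 gate was lost with the older library alone (adjusted p = 0.23) and with no sample block (adjusted p = 0.0681). It was also not made by the exact paired permutation test (p = 0.00879, adjusted p = 0.126 over 13613 genes). Cells in these comparisons come from the same 11 samples, which were kept as a block.

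Ccr6, the receptor for the chemokine CCL20, marks B cells as well as interleukin 17 producers. Its B cell level was 0.866 per 10000 in the older library and 0.820 in the newer library. In the T cell gates of the newer library it was 0.205 in the Trdc/Cd163l1 gate, 0.213 in the CD4 gate, 0.198 in the no-coreceptor gate and 0.0331 in the CD8 gate, so only the CD8 gate stood lower than the other 3. Over 11 samples the Trdc/Cd163l1 gate was higher than the CD4 gate in 4 and lower in 6 (exact paired permutation p = 0.818, adjusted p = 0.962).

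Blk, a Src-family kinase known from B cells and required for the development of interleukin 17-producing gamma-delta T cells, was higher in the Trdc/Cd163l1 gate than in the CD4 gate in every sample. In the Trdc/Cd163l1 gate of the older library it was 0.211 per 10000 in HT2, 0.269 in Nulliparous, 0.335 in Gestation and 0.364 in Lactation. The newer library gave 0.112 in Balb/c, 0.151 in GF, 0.282 in HT2, 0.285 in Lactation, 0.342 in Gestation, 1.82 in Involution and 3.58 in Regression. Each of the 11 samples was higher than its own CD4 gate, whose mean was 0.0108 ± 0.0295 against 0.705 ± 1.07 (SD, n = 11). The exact paired permutation test gave p = 0.000977, the smallest that 11 pairs can give, and an adjusted p = 0.0601 over 12681 genes. Blk was also higher in 11 of 11 samples against the CD8 gate (exact permutation, adjusted p = 0.0502) and the Cd3-negative lymphoid gate (adjusted p = 0.0623), and in 10 of 11 against the no-coreceptor gate (adjusted p = 0.171). That permutation test called 0 genes in each of the 4 contrasts (0.0%), so no member passed it, while 1922, 2240, 1654 and 2189 genes had an unadjusted p under 0.05 against the CD4, CD8, no-coreceptor and Cd3-negative lymphoid gates. B cell marker genes summed to 3.13 per 10000 in the Trdc/Cd163l1 gate of the older library and 3.17 in the newer library, against 2.82 and 2.90 in the CD4 gate and 69.6 and 93.9 in B cells. Their part in the Blk and Ccr6 values of the T cell gates was not tested.

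Without the filter on low counts, edgeR's quasi-likelihood test could be fitted for all 6 testable members, with Cd163l1 left out because it defines the gate. It called 5 of 6 higher in the Trdc/Cd163l1 gate than in the CD4 gate, 6 against the CD8 gate, 3 against the no-coreceptor gate and 5 against the Cd3-negative lymphoid gate. In the same fits 2.57%, 2.34%, 0.454% and 1.58% of 25776 genes were called higher. The difference against the CD4 gate was 5.43 for Blk (adjusted p = 8.623e-34), 3.92 for Il23r (adjusted p = 4.379e-06), 2.34 for Il17re (adjusted p = 2.079e-05) and 2.08 for Il17a (adjusted p = 0.0339) on the log2 scale. Ccr6 was at −0.03 there (adjusted p = 1.0). Many sums hold 0 UMIs of these genes, so these fold changes depend on the model's prior count. In the CD4 gate Blk had 0 UMIs in the older library and 4 in the newer library, and Il23r had 1 in each. Members other than Il18r1 were under the count filter in these contrasts. Their calls here rest on the gate where they were high, and they support no conclusion.

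Cd163l1, the scavenger receptor also called SCART1, is known from interleukin 17-producing gamma-delta T cells and differed widely between samples. The newer library's Regression sample had 231 UMIs in its Cd3e-positive cells, or 1.16 per 10000 (interval 1.01 to 1.32), and Involution had 231 UMIs, or 0.924 (0.809 to 1.05). Lactation followed with 0.190 (0.124 to 0.278) and Gestation with 0.172 (0.141 to 0.209). GF had 0.0761, Balb/c 0.0706 and HT2 0.0592. Regression and Involution had intervals above those of the other 5 samples, and the intervals of Lactation and Gestation overlapped, as did those of GF, Balb/c and HT2. These intervals take each UMI as a separate count. The 231 UMIs of Regression lay in 26 cells and those of Involution in 30, with up to 27 and 25 in 1 cell. Among the samples of the older library Lactation had 0.117, HT2 0.109, Gestation 0.0996 and Nulliparous 0.0620, with overlapping intervals. Because each name is 1 sample per library, these values have no replicate error and no test.

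The same 2 samples had the largest shares of Cd3e-positive cells with the gene, while Gestation of the newer library had the most such cells, 38 of 1587. A Cd163l1 UMI was found in 5.07% of the Cd3e-positive cells of Regression (26 of 513, interval 3.34% to 7.34%) and 4.72% of those of Involution (30 of 635, interval 3.21% to 6.68%), at median depths of 3107 and 3383 UMIs. Gestation had 2.39% (interval 1.70% to 3.27%), Lactation 1.69% (0.682% to 3.45%), GF 0.710%, Balb/c 0.661% and HT2 0.391%, at medians of 2817 to 3254 UMIs. The interval of Involution overlapped those of Gestation and Lactation, and the interval of Regression overlapped that of Lactation. With every cell thinned to 1000 UMIs the shares were 5.40% in Involution, 3.70% in Regression, 1.22% in Gestation, 0.425% in Balb/c, 0.391% in Lactation and 0 in GF and HT2. Among B cells, taken as a type that should lack the gene, 8 of 2694 had a UMI in the newer library.

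The gate as a whole did not follow that order. Balb/c had the largest Trdc/Cd163l1 share of Cd3e-positive cells, 23.3% (176 of 757, interval 20.3% to 26.4%), yet only 5 of those cells had a Cd163l1 UMI. GF had 14.8%, Involution 11.8%, Regression 10.7%, Gestation 9.89%, HT2 9.38% and Lactation 9.18%. In the older library Lactation had 17.2% against 9.06% in Gestation, 6.47% in HT2 and 6.4% in Nulliparous. Thinned to 1000 UMIs, Balb/c had 16.8% and Lactation of the older library 12.2%. Within the gate Cd163l1 stood at 8.99 per 10000 in Regression and 6.78 in Involution, at 1.85 in Lactation and 1.55 in Gestation, and at 0.563 in HT2, 0.478 in GF and 0.272 in Balb/c.

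**Figure D2:**
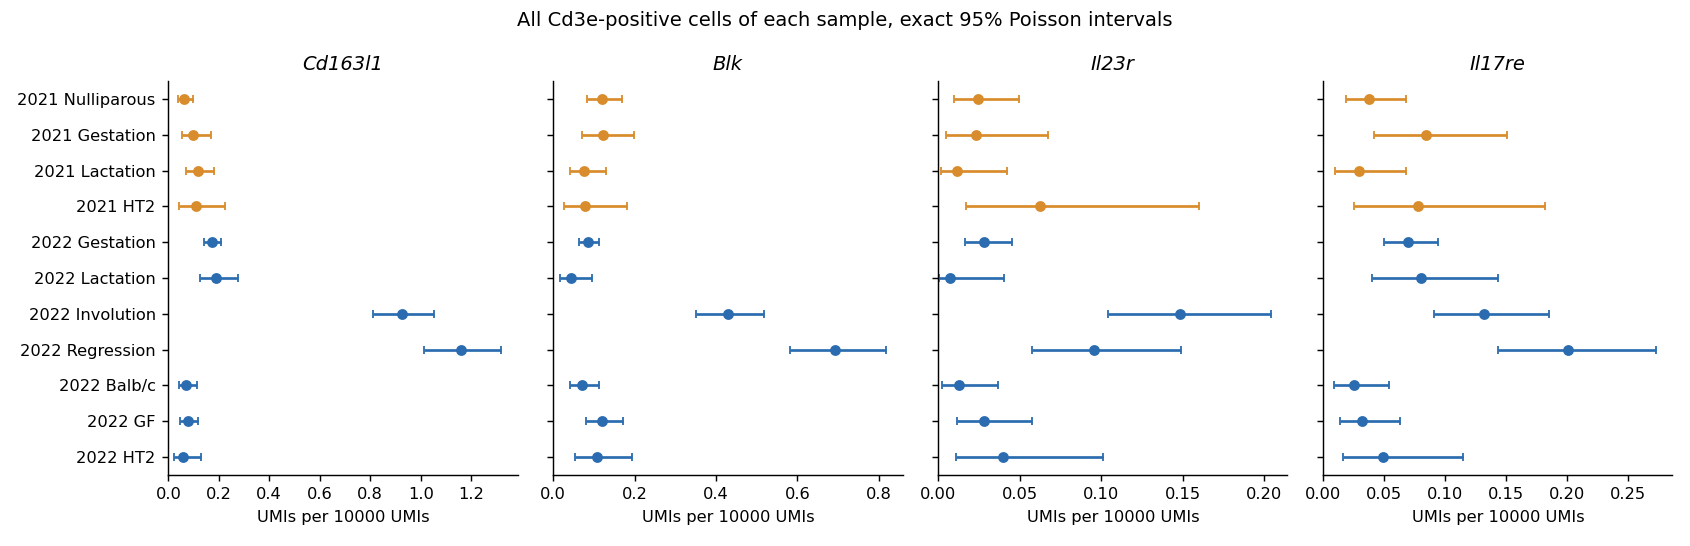
UMIs of Cd163l1, Blk, Il23r and Il17re per 10000 UMIs in all Cd3e-positive cells of each tagged sample, with exact 95% Poisson intervals. The newer library's Involution and Regression samples are highest for all 4 genes, at 0.924 and 1.16 for Cd163l1 and 0.428 and 0.692 for Blk.

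The other members were also highest in Involution and Regression among all Cd3e-positive cells of the newer library. Blk was 0.692 per 10000 in Regression and 0.428 in Involution, and 0.0438 to 0.120 in the other 5 samples. Il23r was 0.0953 and 0.148, against 0.00729 to 0.0394. Il17re was 0.201 and 0.132, against 0.0249 to 0.0802. Ccr6 was 0.411 and 0.300, against 0.0146 to 0.152. Il18r1 was 1.83 and 1.82, against 0.941 to 1.47. Il17a was 0.110 and 0.160, against 0 to 0.0493. These 2 Il17a values rested on 5 and 8 cells, with 10 of 22 UMIs and 18 of 40 UMIs in 1 cell. The range of each gene in the other 5 samples thus ended below both values, but each value is 1 sample. Cells of the Involution and Regression samples made up 20.7% of the gate in the newer library (130 of 629) and held 72.9% of its Cd163l1 UMIs, 78.2% of its Blk UMIs, 78.8% of its Ccr6 UMIs, 74.3% of its Il17a UMIs, 71.8% of its Il23r UMIs, 55.6% of its Il17re UMIs and 46.7% of its Il18r1 UMIs. No sample of these names was called in the older library, so the pattern has no second library to set beside it.

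Lactation against Gestation was the 1 pair of stages present in both libraries. No member passed edgeR's quasi-likelihood test, with the library year as a block and 2 samples a group. The test called 13 of 9499 genes in all Cd3e-positive cells (0.137%), 1 of 3685 in the Trdc/Cd163l1 gate (0.0271%), 3 of 1870 in the CD4 gate (0.16%) and 89 of 8059 in the Cd3-negative lymphoid gate (1.1%). At an unadjusted p under 0.05 there were 393, 87, 70 and 504 genes, with 1 member (Il18r1) among them in all but the CD4 gate, and DESeq2 called 0 members. In all Cd3e-positive cells Il18r1 was lower in Lactation by 0.83 on the log2 scale (SE 0.31, adjusted p = 0.896), from 0.789 to 0.234 per 10000 in the older library and from 1.24 to 1.14 in the newer library. Blk was at −0.82 (SE 0.52), Il17re at −0.50 (SE 0.61) and Cd163l1 at 0.15 (SE 0.36), all with edgeR adjusted p = 0.998. In the Trdc/Cd163l1 gate Il18r1 was at −1.0 (SE 0.40, adjusted p = 1.00). Without Lactation of the newer library, whose tag had the fewest counts of the tags used, Il18r1 was at −1.94 in this gate. That fit had no year block and set 1 Lactation sample, of the older library, against the Gestation samples of both, so stage and library cannot be told apart in it.

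Inside the Trdc-positive cells the members divided with Cd163l1. Cd3e-positive Trdc-positive cells were split by whether they had a Cd163l1 UMI, 19 against 287 cells in the older library and 74 against 517 in the newer library. Cells with Cd163l1 were the shallower, with medians of 1534 against 2053 UMIs and 3260 against 3500. Blk was detected in 42.1% of the cells with and 1.05% of the cells without Cd163l1 in the older library, and in 77.0% and 2.51% in the newer library. Il18r1 was detected in 47.4% and 5.57%, then in 81.1% and 18.4%. Il17re was detected in 26.3% and 0.697%, then in 40.5% and 1.35%. Il23r and Ccr6 were each in 1 cell per side in the older library. In the newer library Il23r was in 29.7% and 0.387% of cells and Ccr6 in 32.4% and 1.55%. Il17a was in 12 of 74 cells with Cd163l1 (16.2%) and 0 of 517 without, where the limit set at 3 cells is 0.580%. All 6 genes were thus detected in a larger share of the Cd163l1 cells of the newer library, despite their lower depth. These shares pool cells over samples of unlike make-up. Involution gave 26 and Regression 22 of the 74 cells with Cd163l1, but 45 and 29 of the 517 without. Sample and Cd163l1 cannot be told apart in pooled shares.

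At 1000 UMIs per cell the shares in the newer library were 43.2% and 0.581% for Blk, 50% and 7.17% for Il18r1, 14.9% and 0.388% for Il17re, 12.2% and 0 for Il23r, 12.2% and 0.194% for Ccr6 and 8.11% and 0 for Il17a. In the older library they were 27.8% and 0.368% for Blk, 38.9% and 2.94% for Il18r1 and 22.2% and 0.368% for Il17re. B cell marker genes were lower in the cells with Cd163l1, at 0.583 against 3.26 per 10000 in the older library and 1.73 against 3.43 in the newer library. Cd79a, 1 of these genes, was detected in 9.46% of the cells with against 4.26% of those without in the newer library, and in 0 of 19 against 2.09% in the older library. Their part in the Blk and Ccr6 values was not tested.

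**Figure D3:**
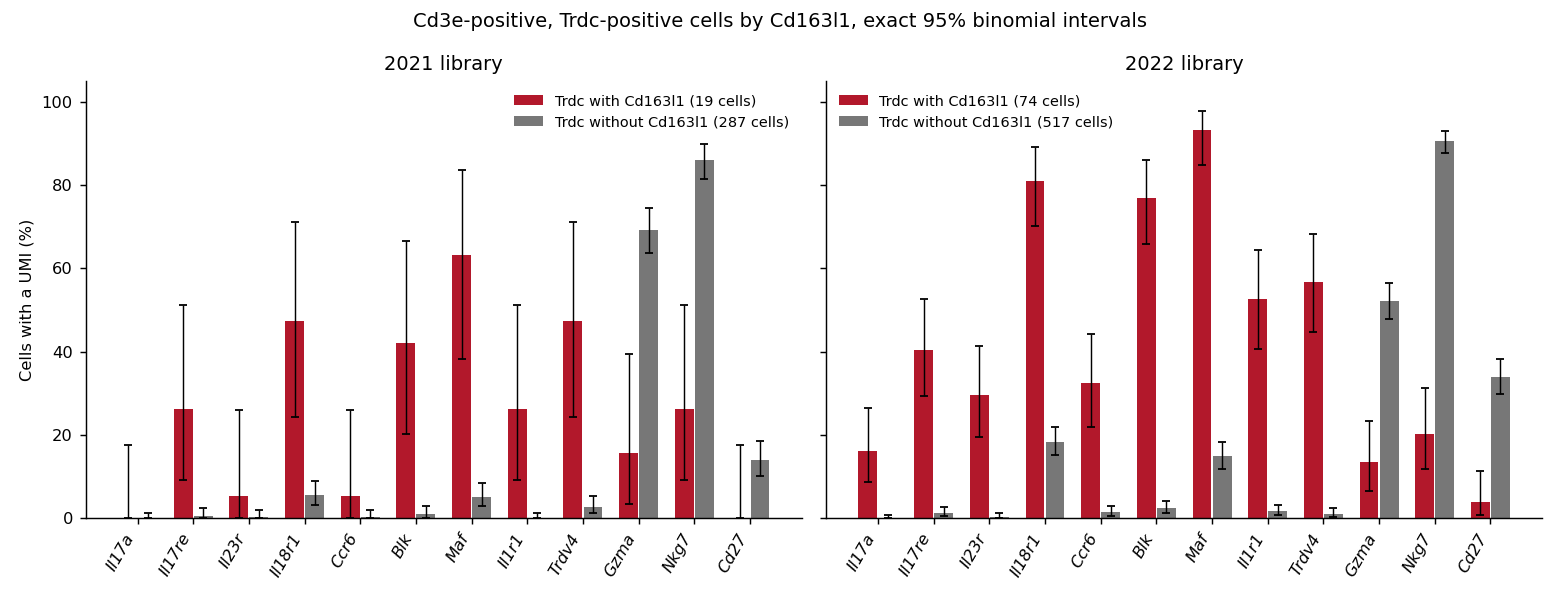
Share of Cd3e-positive Trdc-positive cells with at least 1 UMI of each gene, in cells with and without a Cd163l1 UMI, for the older and the newer library. Cells are pooled over the samples of a library. Blk reaches 77.0% against 2.51% in the newer library, and the cytotoxic genes Gzma and Nkg7 go the other way, at 13.5% against 52.2% and 20.3% against 90.5%.

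Only the newer library's Involution and Regression samples had at least 20 cells on both sides, so the test over samples compared 2 sums with 2 sums, paired by sample. In Involution, 26 cells with Cd163l1 held 55 Blk UMIs of 110411, and 45 cells without held 5 of 205161. In Regression, 22 cells with held 82 Blk UMIs of 116002, and 29 cells without held 7 of 130560. Il17a had 14 and 12 UMIs in the cells with Cd163l1 and 0 in those without. Il23r had 13 against 0 UMIs in Involution and 10 against 1 in Regression, Ccr6 had 20 against 7 and 11 against 3, and Il17re had 12 against 1 and 13 against 4. These 5 members reached the level of the count filter (10 UMIs at the median size of the sums) in the cells with Cd163l1 and in neither sum without, so they entered the test only through the side where they were high, and their edgeR results support no call. Il18r1 was the 1 member of 6 at that level in all 4 sums, with 64 against 45 and 50 against 35 UMIs, and it did not pass (0.92 on the log2 scale, SE 0.32, edgeR adjusted p = 0.171). The test called 85 of 2313 genes (3.67%), 38 of them higher in the cells with Cd163l1 (1.64%) and 47 lower (2.03%). DESeq2 called 27 genes, and leaving out single sums without the block gave 170 to 262 genes.

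Gestation of the newer and Lactation of the older library had at least 5 cells on both sides, a limit chosen after seeing the data. In Gestation 16 cells with Cd163l1 held 19 Blk, 52 Il18r1 and 16 Il17re UMIs, against 0, 37 and 0 in 119 cells without. In Lactation of the older library they held 8 Blk, 2 Il18r1 and 3 Il17re UMIs, against 1, 6 and 1. Blk and Il17re thus had more UMIs in the smaller group of cells in both samples. Il18r1 had fewer UMIs there in the second, but per 10000 UMIs it stood at 1.23 with and 0.196 without Cd163l1. No test is given, since none of the 3 was at the filter's level in all 8 sums.

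Other genes of the pathway were read in the same fit, in lists chosen with earlier results of these data known, and most had enough UMIs on 1 side only. Of 5 transcription factor genes tested 2 were at the filter's level in all 4 sums. Of these Maf, whose product c-Maf is needed for these cells to develop, rose by 2.52 on the log2 scale (SE 0.37, edgeR adjusted p = 0.0215), from 25 to 131 UMIs in Involution and from 30 to 110 in Regression, and Stat3 was at −0.43 (adjusted p = 0.655). Of 9 receptor and signalling genes 4 were at that level, and 2 rose, the chemokine receptor genes Ccr2 by 2.23 and Cxcr6 by 1.83 (adjusted p = 0.0424 and 0.0373). Il7r was at 1.35 and Cd44 at 1.18 without passing. Of 9 other genes known from interleukin 17-producing gamma-delta T cells 1 was at that level, the T cell receptor gamma constant gene Trgc1, and it rose by 2.06 (adjusted p = 0.0225). Of 7 interferon-gamma and cytotoxic genes 2 were, and both fell, Gzma at −3.16 and Nkg7 at −2.78 (adjusted p = 0.00128 and 0.0103). The rest are given by their UMIs over both samples, with against without Cd163l1. Rora had 94 and 18, Ltb4r1 45 and 5, Il2ra 32 and 4, Il1r1 36 and 6, Trdv4 107 and 3. Serpinb1a had 37 and 5, Aqp3 41 and 6, Tmem176a 135 and 30, Tmem176b 102 and 26, Actn2 56 and 10. Zbtb16 had 39 and 8, Ckb 30 and 8 and Sox13 24 and 5. Icos had 49 and 31, and Il17ra had 22 and 29, at −0.02 on the log2 scale. Klrd1 had 12 against 166 and Eomes 1 against 32. Gzmb had 6 against 234, Xcl1 6 against 207, Cd27 3 against 57 and 5830411N06Rik, a scavenger receptor gene related to Cd163l1, 9 against 50. Il22, Csf2 and Il17f were not among the genes with enough UMIs to test.

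**Figure D4:**
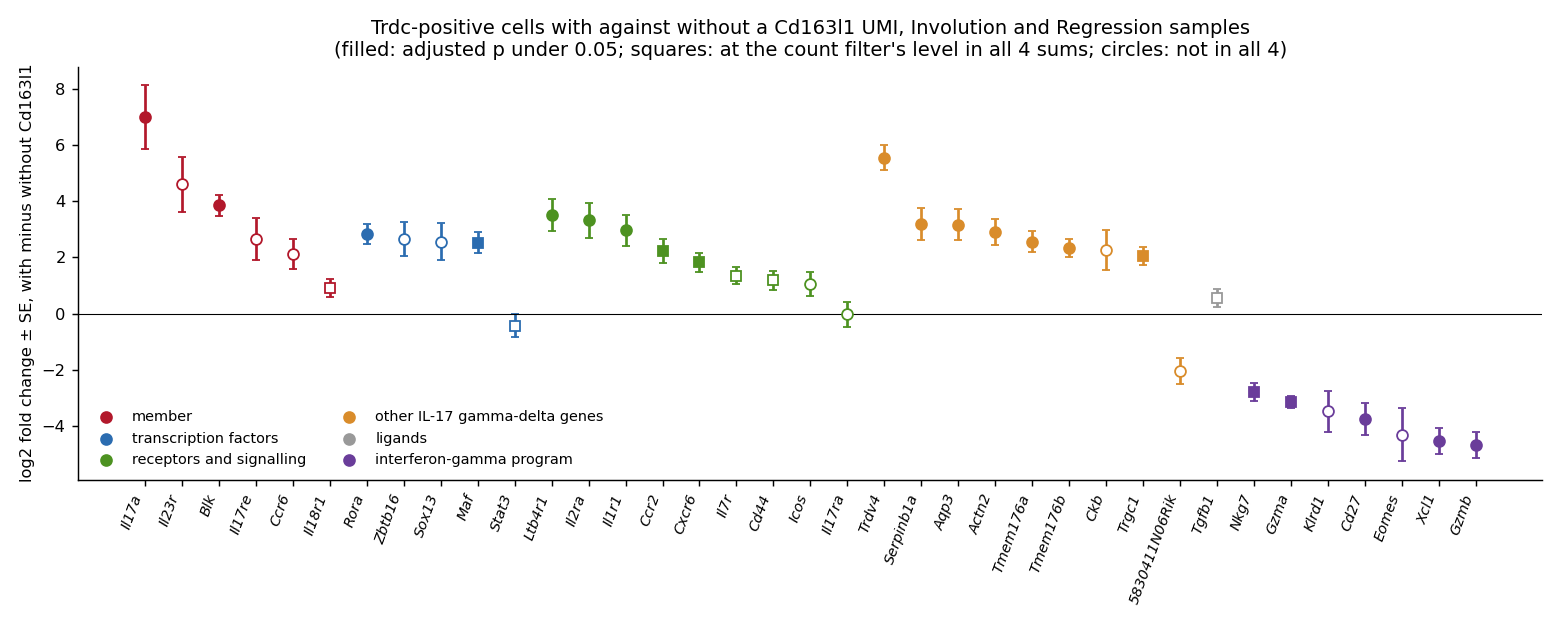
Log2 fold change with its standard error between Trdc-positive cells with and without a Cd163l1 UMI (2 against 2 sums), for the members and the pathway lists, filled where the edgeR adjusted p was under 0.05. Squares are genes at the count filter's level in all 4 sums, and circles those that were not, whose fold changes support no call. Among the squares Maf is at 2.52 and Gzma is lowest at −3.16.

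In single cells the members were found together. At least 2 of the other 6 members were detected in 12 of 30 Cd3e-positive cells with Cd163l1 in the older library (40.0%) and in 68 of 112 in the newer library (60.7%). The same held for 1.05% and 2.90% of Trdc-positive cells without Cd163l1, 0.541% and 3.0% of the CD4 gate, 0.161% and 1.13% of the CD8 gate, and 1.68% and 5.53% of the no-coreceptor gate. Median depths were 1325 to 2053 UMIs in the older library and 2820 to 3500 in the newer library. Cells with Cd3d or Cd3g but no Cd3e UMI, which the T cell gates leave out, had the members as well: of 27 such cells with Cd163l1 in the older library there were 11 with at least 2 others (40.7%), and of 18 in the newer library there were 10 (55.6%).

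Not every Cd163l1 cell looked like this. In the newer library, 38 Cd3e-positive cells had Cd163l1 and no Trdc UMI, and 28 of them had Trac and 19 had Cd8b1. Only 3 of the 38 had Blk, 1 had Il17re and 25 had Il18r1, against 57, 30 and 60 of the 74 cells with Trdc. The 11 cells without Trdc in the older library differed from these, with Blk in 5, Trac in 2 and Cd8b1 in 0. By sample, Gestation of the newer library had Trdc in 16 of its own 38 Cd3e-positive cells with Cd163l1. Involution had it in 26 of 30 and Regression in 22 of 26. Gestation thus had more Cd163l1 cells without Trdc than with it.

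Part of the program sat outside the Trdc/Cd163l1 gate. In the no-coreceptor gate 28 cells of the older library and 70 of the newer library had an Il17re or Il23r UMI. In the newer library Il18r1 was detected in 91.4% of them against 21.9% of the other cells of the gate, Ccr6 in 51.4% against 2.67% and Blk in 35.7% against 2.90%, at medians of 3536 and 2888 UMIs. In the older library the shares were 53.6% against 6.77% for Il18r1, 25.0% against 0.717% for Ccr6 and 28.6% against 1.03% for Blk, at medians of 1648 and 1527. Maf was in 95.7% against 23.7% in the newer library, and Zbtb16, which encodes the factor PLZF of innate-like T cells, in 31.4% against 3.04%. Trac was detected at like shares on both sides, 70% and 64.6% in the newer library and 39.3% and 40.3% in the older library. Trgc1 was detected in 34.3% against 12.7% in the newer library and in 25.0% against 9.37% in the older library. Whether some of these cells were gamma-delta T cells with no Trdc UMI captured was not tested. Foxp3, the regulatory T cell factor, was in 0 of the 70 and 0 of the 28 cells. These shares pool cells over samples of unlike make-up. Involution gave 17 of the newer library's 38 no-coreceptor cells with Il23r, but 252 of the 2205 cells of that gate. Sample and Il17re or Il23r cannot be told apart in such shares.

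The genes whose levels over the gates of each sample were most like the mean of the 7 members were ranked by the lower of the 2 libraries' Pearson r, over 20 sums in the older library and 35 in the newer library that share samples and depth. Of 8020 genes the first 3 were Trdv4 (r = 0.65), Serpinb1a (r = 0.64) and Trgc1 (r = 0.61), of which Trdv4 and Trgc1 are T cell receptor delta and gamma genes. Pi4k2a (0.59), Riox2 (0.57), Ly6g5b (0.57), Snx2 (0.56), Cabin1 (0.53), Selenop (0.52) and Tmem176a (0.51) followed. These are descriptions with no test. Cd163l1 is 1 of the 7 members and has 0 UMIs by definition in the CD4, CD8 and no-coreceptor gates. Genes that go with Trdc or Cd163l1 were thus favoured by the gates, and the ranks of Trdv4 and Trgc1 are not independent of them.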

How the data were processed

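The deposited gene tables hold raw UMI counts per cell barcode, and the tag tables hold counts per hash tag. Per the submitters' processing notes the authors used Cell Ranger 6.1.0 and mm10. Other settings were not given in the sources used. Of 55487 table entries, 55253 genes were common to both libraries. Barcodes under 500 UMIs or 300 genes, or over 10% mitochondrial UMIs, were dropped. Hash calls came from Seurat 5.3.0 (HTODemux, quantile 0.99), and doublets were removed by tag and by Scrublet in scanpy 1.11.5 (expected rate 0.08), together with clusters of over 50% doublets. This left 15284 and 14600 cells, in gates or outside them. Levels are UMIs per 10000 UMIs.

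Raw counts were summed per gate and tagged sample, leaving out sums under 20 cells, and tested with edgeR 4.0.16 (quasi-likelihood, TMM, filterByExpr, Benjamini-Hochberg over all genes, threshold 0.05) in R 4.3.3. The tagged sample was a block in gate comparisons, since its gates share the same cells' source, and library year was a block for Lactation against Gestation. Nothing in the labels says that tags came from separate animals, so p-values measure only the spread between these samples. Gate genes got no test. The exact permutation test flipped the sign of each sample's difference, for genes with at least 10 UMIs, and was added after seeing the data. DESeq2 1.42.0, other size factors, filters and tag calls were the alternatives. The scripts were tested on simulated counts and differences with known changes. Named are the 7 members, genes of the pathway lists and the 10 genes most like the members. Some genes of the lists are not reported here and were left out of the list counts. Members and lists were chosen with earlier results of these data known. Files spell Tcrg-C1 as Trgc1.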

Additional observations from a re-analysis of the deposited data

Results flagged for a closer look

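The share of Cd3e-positive cells in the Trdc/Cd163l1 gate moved in opposite directions from Gestation to Lactation in the 2 libraries. Lactation minus Gestation was 8.12 percentage points in the older library and −0.714 points in the newer library. The share of Cd3e-positive cells with a Cd163l1 UMI did the same, at 0.584 points in the older library and −0.704 points in the newer library. Each value compares 1 sample with 1 sample, and the difference between the libraries was not tested.

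Cd163l1 was also found in cells that the T cell gates leave out, those with a Cd3d or Cd3g UMI but none of Cd3e. They held 87 Cd163l1 UMIs in the older library, more than the 58 in the Trdc/Cd163l1 gate itself, and 84 in the newer library, against 0 and 8 in the B cell gate.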

How the results depend on the processing

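No called result turned its direction under the alternatives run. Settings without the HT2 samples or Lactation of the newer library, with sums of 5 cells and with single sums left out were chosen after seeing the data. Genes called against the CD4, CD8, no-coreceptor and Cd3-negative lymphoid gates were 259, 315, 18 and 129 with the older library alone. With no filter on low counts the last 2 were 491 and 1298. With no sample block, so without the pairing of gates by sample, they were 19 and 381. Members called in these 4 contrasts were 5, 6, 3 and 5 with no filter, 1, 3, 1 and 1 with the newer library alone or without HT2, 2, 2, 1 and 1 without Lactation of the newer library or with the gate free of coreceptor UMIs, and 1, 2, 1 and 1 with Scrublet-called cells kept or the tag quantile at 0.95. RLE size factors gave 1 against the CD4 gate, and no block or the older library alone gave 0 against the CD8 gate. The main fit tested 1 member per contrast and called 0, 1, 0 and 0, where 15.0%, 15.1%, 2.07% and 11.1% of all genes were called. Counts above 1 arose only where a setting let further members past the count filter. These counts are thus not read as a result about the members.

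Between Trdc-positive cells with and without Cd163l1, DESeq2 called 27 genes, no filter 267, no sample block 234, sums of 5 cells 173, Scrublet-called cells kept 222, and single sums left out 170 to 262. Members called, which support nothing where they reached the filter on 1 side, were 1 with DESeq2, which gave no adjusted p for Il17a, 5 with no filter or no block, 6 with Scrublet-called cells kept, 1 with the gate free of coreceptor UMIs, and 1 to 3 with single sums left out. With the older library alone or the tag quantile at 0.95 this contrast could not be fitted.

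For Lactation against Gestation, leaving out 1 sample at a time gave 0 to 19 genes in all Cd3e-positive cells, 0 to 48 in the Trdc/Cd163l1 gate, 0 to 17 in the CD4 gate and 0 to 129 in the Cd3-negative lymphoid gate, the lone sample being assumed to vary like the others, and 0 to 1 members. With no year block, that is no replicate block, 0 genes were called in each. In the same order DESeq2 called 5, 0, 1 and 8 genes. Scrublet-called cells kept gave 26, 2 and 1 in the first 3, and no filter gave 96, 21 and 14. The tag quantile at 0.95 gave 36 in all Cd3e-positive cells, 1 in the CD4 gate and 27 in the Cd3-negative lymphoid gate. RLE size factors gave 13 in the CD4 gate, cells of at least 1000 UMIs gave 5 and 0 in the first 2, and Trdc alone gave 0 in its gate. The cause of these changes was not tested.

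The Trdc/Cd163l1 share of Cd3e-positive cells, 9.36% in the older library and 12.9% in the newer library, was 4.46% and 9.25% when at least 2 UMIs were asked for and 6.83% and 8.71% after thinning. In the newer library it was 9.37% with the gate free of coreceptor UMIs. In the older library this gate held 0 Il17a, 4 Il23r and 3 Ccr6 UMIs of 756362, and the part of depth in this was not tested.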

Other observations

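In all Cd3e-positive cells Lactation of the older library had the lowest Il18r1 level of the 11 samples, 0.234 per 10000 (interval 0.167 to 0.318), while its Trdc/Cd163l1 share of 17.2% was the largest of the older library. In the Cd3-negative lymphoid gate the cells with Gata3 and Il1rl1, genes of group 2 innate lymphoid cells, were 57 in the older library and 71 in the newer library, and held 0 UMIs of Il17a, Il23r, Il17re, Blk and Ccr6, with Il18r1 at 0.341 and 0.817 per 10000.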
